A study of Homo sapiens with 12 samples.

Results

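The genes described here are 32 members of the unfolded protein response and the integrated stress response, taken by gene name from a count table of 59498 genes. They were followed in SKOV-3, an established human epithelial ovarian adenocarcinoma cell line, and in a cisplatin-resistant derivative named SKOV-3 CDDP. RNA was sequenced in 12 libraries, 3 in each of 4 groups: resistant cells carrying a double knockout (dKO) of KDM5A and KDM5B, which encode histone demethylases, resistant cells without it, parental cells carrying the same double knockout, and parental cells without it. All cells were grown in the same serum-containing medium. Column names of both groups without the knockout carry the letters NT, which neither these names nor the sample titles explain. The labels give neither a cisplatin treatment of the cultures nor whether the resistant line or a knockout line is 1 clone, and they do not state separate cultures for the 3 libraries within a group. A p-value here therefore measures the spread among libraries alone, and that spread may be technical.

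Unfolded protein in the endoplasmic reticulum (ER) is sensed by 3 membrane proteins, IRE1 (encoded by ERN1), ATF6 and PERK (EIF2AK3). ATF6 and spliced XBP1, the product of IRE1, switch on genes for ER chaperones, disulfide isomerases and the machinery of ER-associated degradation (ERAD). PERK and its sister kinases phosphorylate the translation factor eIF2α, which lowers general translation but raises translation of ATF4, a transcription factor that drives amino acid enzymes and stress genes such as DDIT3, TRIB3 and CHAC1. mRNA counts measure neither XBP1 splicing, kinase phosphorylation nor ATF4 protein.

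By role, 15 members formed an ER arm, with 11 folding genes (HSPA5, HSP90B1, DNAJB9, DNAJB11, DNAJC3, SDF2L1, CRELD2, MANF, PDIA4, PDIA6 and HYOU1) and 4 ERAD genes (HERPUD1, SEL1L, SYVN1 and EDEM1). A further 13 formed an ATF4 arm, with 9 stress factors and effectors (ATF4, DDIT3, DDIT4, TRIB3, PPP1R15A, CHAC1, CEBPB, VLDLR and NUPR1) and 4 amino acid enzymes (ASNS, PSAT1, PHGDH and SHMT2). The remaining 4 were the sensors and XBP1. All 32 passed the filter on low counts, as did 17947 genes in all.

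The promoters of the members are shown first, searched for sequence elements bound by the factors named above, although the windows of most members held none. The ER stress response element (ERSE) is CCAAT, then 9 bases of any kind, then CCACG; it is bound by NF-Y together with ATF6 or XBP1. ERSE-II is ATTGG, 1 base of any kind and CCACG. The C/EBP-ATF response element (CARE), TGATGNAA, is bound by ATF4 with a C/EBP partner. Windows of 300 bases, from 250 before to 50 after the start of the gene, came from RefSeq on GRCh38.p14 for 30 of the 32 members, and both strands were searched. The windows of 4 genes whose levels are described below are printed in the direction of the gene, with the bases of the element in capitals.
CRELD2, chr22:49918384-49918683, plus strand, an ERSE on the opposite strand: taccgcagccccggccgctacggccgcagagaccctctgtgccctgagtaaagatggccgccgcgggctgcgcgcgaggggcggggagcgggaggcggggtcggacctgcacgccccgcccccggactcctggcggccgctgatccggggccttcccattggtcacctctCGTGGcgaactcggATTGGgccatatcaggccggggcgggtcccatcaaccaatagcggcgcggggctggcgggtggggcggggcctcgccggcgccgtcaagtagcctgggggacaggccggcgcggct
HSPA5, chr9:125241294-125241593, minus strand, an ERSE on the same strand: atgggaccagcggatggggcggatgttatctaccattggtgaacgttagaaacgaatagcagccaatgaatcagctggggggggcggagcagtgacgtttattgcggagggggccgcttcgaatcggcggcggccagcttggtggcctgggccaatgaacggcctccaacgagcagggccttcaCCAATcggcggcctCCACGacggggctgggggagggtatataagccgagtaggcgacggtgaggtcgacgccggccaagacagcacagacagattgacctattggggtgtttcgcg
SDF2L1, chr22:21642052-21642351, plus strand, an ERSE-II on the opposite strand: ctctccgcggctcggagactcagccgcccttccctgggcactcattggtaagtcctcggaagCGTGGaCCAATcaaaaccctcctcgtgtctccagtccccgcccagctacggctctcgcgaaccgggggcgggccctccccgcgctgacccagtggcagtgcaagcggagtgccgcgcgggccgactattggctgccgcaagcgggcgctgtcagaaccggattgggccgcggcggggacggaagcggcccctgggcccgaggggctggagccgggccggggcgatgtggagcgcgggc
ASNS, chr7:97872359-97872658, minus strand, a CARE on the same strand: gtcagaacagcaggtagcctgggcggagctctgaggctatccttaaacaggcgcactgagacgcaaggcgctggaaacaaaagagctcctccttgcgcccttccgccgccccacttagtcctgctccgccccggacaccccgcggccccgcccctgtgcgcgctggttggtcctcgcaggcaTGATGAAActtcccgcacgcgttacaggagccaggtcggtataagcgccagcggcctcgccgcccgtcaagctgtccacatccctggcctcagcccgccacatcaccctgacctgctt

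Read in the direction of the element, the matches in the other members differ from these in the spacer and in their distance from the start. They are printed so that the fixed bases (capitals) can be set against the free ones.
HSP90B1, ERSE, 194 to 176 bases before the start: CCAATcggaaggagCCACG
HSP90B1, ERSE, 89 to 71 bases before the start, opposite strand: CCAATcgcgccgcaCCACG
PDIA6, ERSE, 86 to 68 bases before the start: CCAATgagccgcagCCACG
XBP1, ERSE, 52 to 34 bases before the start: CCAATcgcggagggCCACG
HERPUD1, ERSE-II, 117 to 107 bases before the start: ATTGGgCCACG
HYOU1, ERSE-II, 185 to 175 and again 79 to 69 bases before the start, opposite strand: ATTGGaCCACG
CHAC1, CARE, 209 to 202 bases before the start, opposite strand: TGATGcAA
HERPUD1, CARE, 176 to 169 bases before the start, opposite strand: TGATGcAA

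An ERSE stood in the windows of 5 of the 30 members (HSPA5, HSP90B1, CRELD2, XBP1 and PDIA6), against 25 of 27305 genes with such a window (0.0916%). An ERSE-II stood in 3 members (SDF2L1, HERPUD1 and HYOU1), against 19 of 27305 genes (0.0696%). Some genes, among them ASNS, had several windows, and a match in any of them was counted. For ASNS only the window with the match is printed above. None of the 11 ATF4-arm genes with a window held either element, and 2 of the 11 held a CARE (CHAC1 and ASNS). A CARE stood in 3 members (HERPUD1, CHAC1 and ASNS), against 1217 genes (4.46%), and the core of the UPR element, TGACGTGG, in HYOU1, where it overlaps the first ERSE-II, against 253 genes (0.927%). A match describes letters in these windows and is not a measured binding site.

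Total counts ran from 15659352 to 19706754 per library. KDM5A transcripts were at 14.8 ± 2.82 CPM in resistant dKO cells and 37.4 ± 3.49 CPM in resistant cells, and at 19.68 ± 3.60 CPM in parental dKO cells and 37.3 ± 5.59 CPM in parental cells (SD, n = 3 each; CPM, counts scaled to the library size). KDM5B was at 56.7 ± 28.2 and 76.6 ± 36.1 CPM in resistant dKO and resistant cells and at 53.8 ± 26.9 and 57.9 ± 19.3 CPM in parental dKO and parental cells, with overlapping libraries; the edited site is not given in the labels, and a counted transcript can still carry a small edit, so these counts do not check the KDM5B label. Of 9 epithelial ovarian carcinoma markers, 7 or 8 reached 1 CPM in each group, with summed levels of 1415 to 1930 CPM in resistant dKO, 1810 to 2602 CPM in resistant, 426 to 1079 CPM in parental dKO and 529 to 856 CPM in parental libraries. No leukocyte (of 6) or endothelial (of 5) marker reached 1 CPM in any group. Fibroblast-type markers did: 5 of 8 in resistant dKO cells (summed level 2525 to 4467 CPM), 4 in resistant cells (347 to 953 CPM), 3 in parental dKO cells (1.95 to 28.6 CPM) and 1 in parental cells (1.73 to 7.66 CPM). The part of these genes in the results below was not tested.

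Both parental groups were uneven in the stress genes. DDIT3, which encodes the transcription factor CHOP, stood at 195, 208 and 18.1 CPM in parental dKO libraries 1, 2 and 3, and at 177, 168 and 29.4 CPM in parental libraries 1, 2 and 3. Library 3 of both groups was thus far below its partners. In this gene the resistant groups were even, at 14.0, 12.4 and 13.6 CPM with the dKO and 11.8, 14.7 and 18.6 CPM without it. Library 3 had less than 0.5 times the mean of libraries 1 and 2 for 9 of 13 ATF4-arm genes in parental dKO cells and 6 of 13 in parental cells, against 10.2% and 6.98% of all genes at 1 CPM or more. For the 15 ER-arm genes these counts were 3 and 2. Library 3 was also this low for 2 of 13 ATF4-arm genes in resistant dKO cells and 3 of 13 in resistant cells. The shares of all genes at 1 CPM or more were 16.1% and 9.82% there. Parental dKO library 3 also had the highest share of mitochondrial reads, 16.3%, and resistant library 1 the lowest share of ribosomal protein reads, 2.81%. Counts of calls are therefore also given without library 3 of both parental groups, a choice made after seeing the data.

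**Figure D1:**
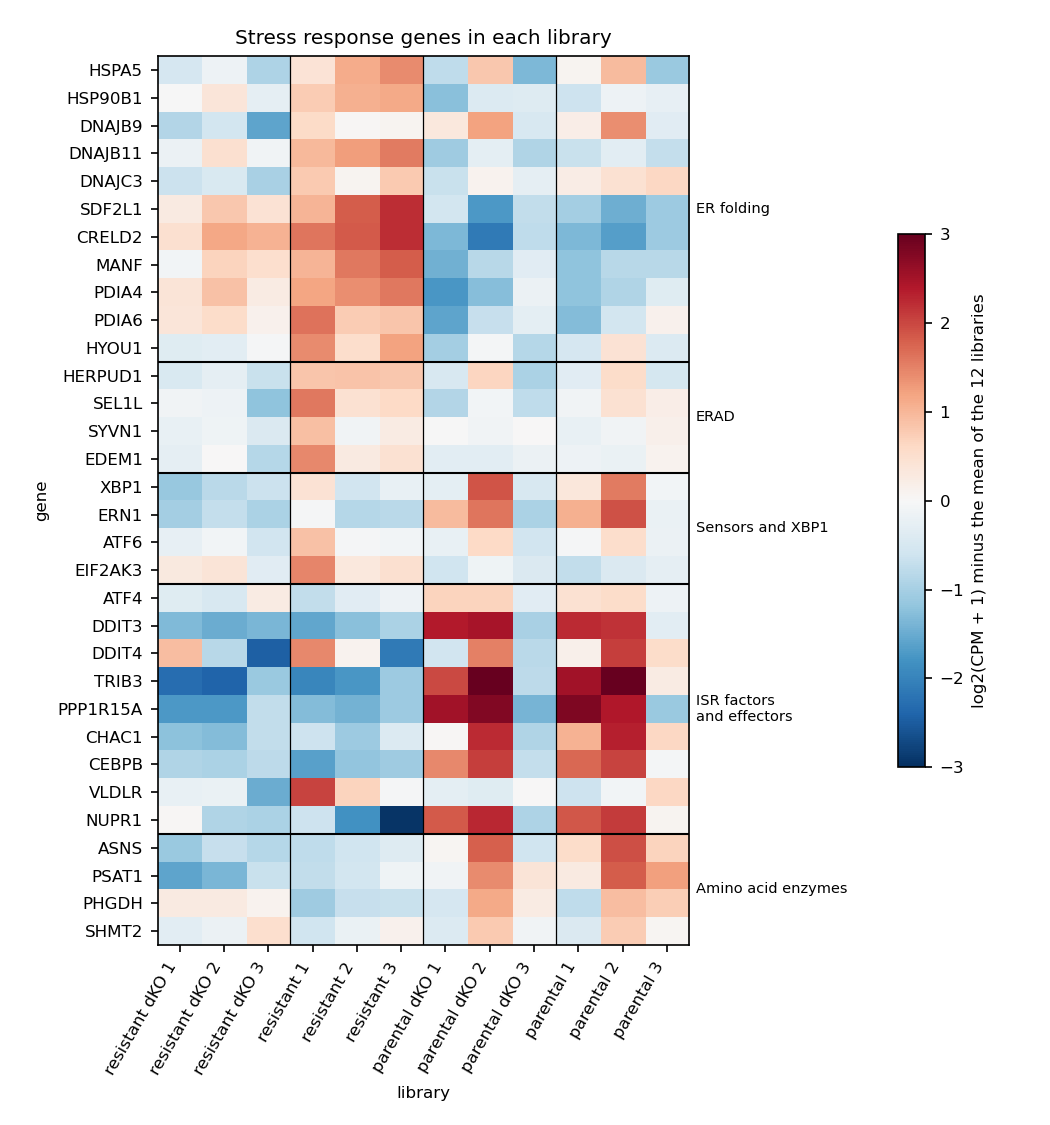
Level of each of the 32 genes in each of the 12 libraries, as log2(CPM + 1) minus that gene's mean over the libraries; rows are genes by role and columns are libraries by group. Colours end at -3 and 3. Most ER-arm rows are highest in the resistant libraries, and rows such as DDIT3 and TRIB3 are highest in libraries 1 and 2 of both parental groups.

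The first comparison asked how resistant cells differed from parental cells. The module split by role: 8 of 15 ER-arm genes rose and 0 fell, and 0 of 13 ATF4-arm genes rose while 9 fell. Over all 32 members 9 rose and 10 fell, where 15.2% of all genes tested were higher and 12.8% lower (edgeR's quasi-likelihood test, adjusted p under 0.05). The median log2 fold change was 1.19 in the ER arm and -1.78 in the ATF4 arm, against 0.02 over all genes tested. Every resistant library lay above every parental library in 10 of 15 ER-arm genes, where 23.7% of all genes did so, and below in 7 of 13 ATF4-arm genes, where 21.8% did so. In cultures measured in bulk, fewer cells expressing a gene and less RNA per cell cannot be told apart. The ER arm took 0.811% to 1.24% of all counts in resistant libraries, against 0.321% to 0.590% in parental libraries. HSPA5 and HSP90B1 together made up 56.0% to 70.1% of these arm counts in resistant libraries and 59.9% to 78.2% in parental libraries. The other 13 genes took 0.312% to 0.381% of all counts in resistant libraries, against 0.0991% to 0.129% in parental libraries.

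**Figure D2:**
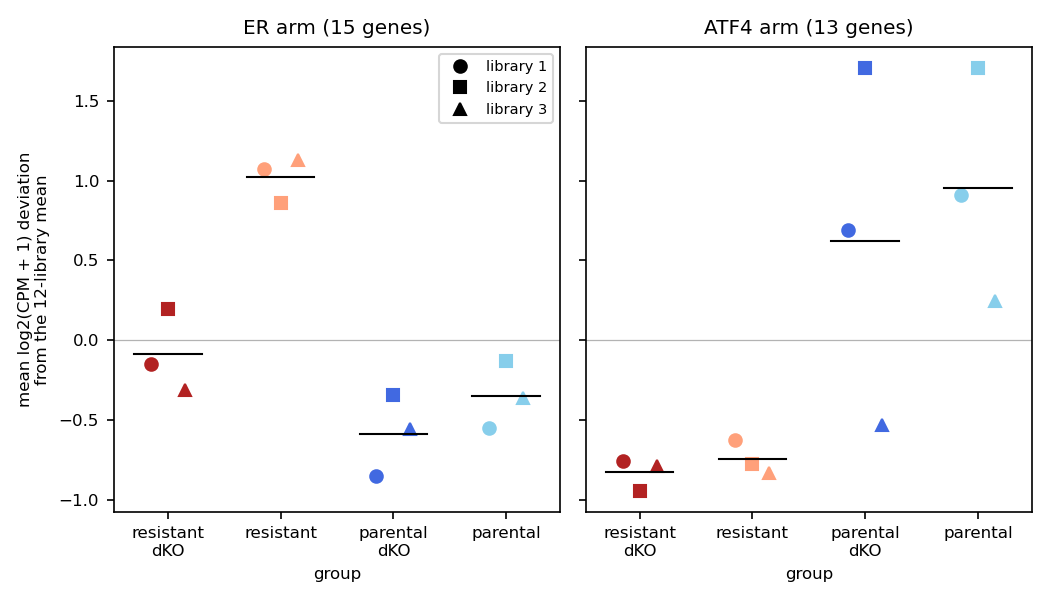
Mean over the genes of each arm of the deviation of log2(CPM + 1) from the 12-library mean; each point is a library and the bar is the mean of its group. The ER arm stood at 1.07, 0.86 and 1.13 in the resistant libraries and between -0.85 and 0.20 in the others; the ATF4 arm ran from -0.53 to 1.71 in parental dKO libraries and from 0.25 to 1.71 in parental libraries.

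The largest increases were in small ER folding proteins. CRELD2, an ER-resident disulfide isomerase-like protein, was at 124, 148 and 190.3 CPM in resistant cells and at 15.1, 12.0 and 18.4 CPM in parental cells, a log2 fold change of 3.34 ± 0.38 (SE; adjusted p = 5.91e-05). SDF2L1, a partner of the co-chaperone DNAJB11, was at 59.1, 104 and 138 CPM in resistant cells, against 13.6, 9.80 and 12.99 CPM in parental cells (3.04 ± 0.39; adjusted p = 0.000155). MANF, an ER protein that is secreted under stress, was at 251, 368 and 432 CPM in resistant cells and 53.0, 68.8 and 68.3 CPM in parental cells (2.47 ± 0.34; adjusted p = 0.000293). For these 3 genes the lowest resistant library was above the highest parental library by a wide margin, and all 3 stayed past the threshold under every one of the 21 alternatives run. CRELD2 shares 168 exon bases with ALG12 on the opposite strand, whose reads summed to 29.1% of those of CRELD2 over the 12 libraries; the strand setting of the counting is not given in the sources used here.

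The disulfide isomerases and larger chaperones followed with smaller changes. PDIA4 was at 519, 603 and 683 CPM in resistant cells, against 98.9, 122 and 179 CPM in parental cells (2.18 ± 0.40; adjusted p = 0.00188). DNAJB11, which brings substrates to the chaperone BiP, was at 237, 291 and 359.8 CPM in resistant cells and 75.6, 97.03 and 73.5 CPM in parental cells (1.85 ± 0.30; adjusted p = 0.000777). Neither gene overlapped between groups. PDIA6, a second isomerase, was at 942, 512 and 542 CPM in resistant cells, with library 1 well above the others, and at 122, 208 and 331 CPM in parental cells (1.59 ± 0.42; adjusted p = 0.0140). HSP90B1, the ER form of HSP90, was at 2012, 2473 and 2627 CPM in resistant cells, against 769, 1061 and 1004 CPM in parental cells (1.33 ± 0.32; adjusted p = 0.00840). HYOU1, a large HSP70-type chaperone that exchanges nucleotide on BiP, was at 688, 374 and 597 CPM in resistant cells and 183, 347 and 195 CPM in parental cells (1.19 ± 0.36; adjusted p = 0.0255). HYOU1 is the closest of these to overlap: resistant library 2 and parental library 2 lay side by side.

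The gene most often used as the mark of this response, HSPA5, did not pass. HSPA5 encodes BiP, the main ER chaperone, and per kilobase of exon it was the most abundant member in every group, with a mean of 1084 CPM per kb in resistant and 610.4 CPM per kb in parental cells. Its level was 2748, 4488 and 5479 CPM in resistant libraries 1, 2 and 3, against 2177, 4018 and 961 CPM in parental libraries 1, 2 and 3, so the groups overlapped (log2 fold change 0.83 ± 0.58; adjusted p = 0.308). Both groups were spread widely, and parental library 3 was the lowest of the 6. DNAJB9, a co-chaperone that restrains IRE1, and DNAJC3, a co-chaperone known as an inhibitor of PERK, had log2 fold changes of -0.37 ± 0.50 and 0.15 ± 0.28. The 4 ERAD genes had positive values that did not pass: 0.91 ± 0.32 for the mannosidase-like EDEM1 (adjusted p = 0.0516), 0.86 ± 0.39 for HERPUD1, 0.77 ± 0.38 for SEL1L and 0.48 ± 0.26 for the ubiquitin ligase gene SYVN1. EDEM1 passed in 8 of the 21 alternatives. SYVN1 shares 398 exon bases with FAU on the same strand, so its count may hold reads of both.

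The sensors moved apart. EIF2AK3 was at 59.9, 26.4 and 29.8 CPM in resistant cells and 12.2, 15.4 and 17.3 CPM in parental cells, without overlap (1.37 ± 0.34; adjusted p = 0.0106; not past the threshold without resistant library 1). ERN1 was at 23.9, 13.1 and 13.7 CPM in resistant cells, against 52.1, 94.7 and 21.3 CPM in parental cells (-1.73 ± 0.60; adjusted p = 0.0457). The ERN1 groups overlapped through parental library 3, and its call was lost in 10 of 21 alternatives. ATF6 had a log2 fold change of 0.19 ± 0.36 and XBP1 one of -0.84 ± 0.59, with libraries of 161, 79.3 and 102 CPM in resistant cells and 151, 348 and 112 CPM in parental cells. Neither passed.

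On the ATF4 side the decreases were larger in size and in error. TRIB3, a pseudokinase induced by ATF4 and CHOP, was at 25.6, 29.6 and 47.6 CPM in resistant cells, against 587, 943 and 121 CPM in parental cells (-4.01 ± 0.93; adjusted p = 0.00723). PPP1R15A, the regulatory subunit that directs dephosphorylation of eIF2α, was at 31.4, 29.2 and 37.0 CPM in resistant cells and 559.6, 422 and 36.3 CPM in parental cells (-3.38 ± 0.96; adjusted p = 0.0201). In TRIB3 parental library 3 lay nearest to the resistant libraries, and in PPP1R15A it lay among them; the call of PPP1R15A was lost in 7 of 21 alternatives. NUPR1, a small stress-induced nuclear protein, was at 63.3, 27.1 and 11.8 CPM in resistant cells and 362, 420.1 and 104 CPM in parental cells (-3.12 ± 0.80; adjusted p = 0.0124). DDIT3, with the libraries given above, had a log2 fold change of -3.05 ± 0.77 (adjusted p = 0.0108). DDIT3 shares 355 exon bases with MARS, a tRNA synthetase gene on the opposite strand that had 461% of its reads.

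Further factors fell by less. CEBPB, a C/EBP factor that pairs with ATF4, was at 17.9, 24.9 and 27.1 CPM in resistant cells and 193, 239 and 55.1 CPM in parental cells (-2.80 ± 0.62; adjusted p = 0.00558). CHAC1, which degrades glutathione, was at 16.7, 11.8 and 19.4 CPM in resistant cells, against 54.3, 135 and 40.7 CPM in parental cells (-2.26 ± 0.69; adjusted p = 0.0270). Neither overlapped between groups. ATF4 mRNA itself, which is regulated mainly in translation, was at 212, 279 and 320 CPM in resistant cells and 489, 525 and 320 CPM in parental cells, and did not pass (-0.72 ± 0.35; adjusted p = 0.139). DDIT4, an inhibitor of mTORC1, and VLDLR, a lipoprotein receptor, did not pass either, at -0.75 ± 0.95 and 1.11 ± 0.51. DDIT4 spanned 23.2 to 285 CPM within the resistant group alone.

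Among the enzymes 3 of 4 fell, where 12.8% of all genes tested were lower. ASNS, which makes asparagine, was at 67.8, 76.5 and 87.9 CPM in resistant cells and 171, 446 and 183 CPM in parental cells (-1.78 ± 0.54; adjusted p = 0.0267). PSAT1, of serine synthesis, was at 139.7, 159 and 213 CPM in resistant cells, against 279.7, 821 and 551 CPM in parental cells (-1.69 ± 0.46; adjusted p = 0.0168). Both were without overlap, and parental library 2 was the highest in each. PHGDH, which catalyses the first step of serine synthesis, was at 32.6, 42.0 and 43.0 CPM in resistant cells and 40.0, 132 and 115 CPM in parental cells, overlapping through parental library 1 (-1.29 ± 0.44; adjusted p = 0.0448), and its call was lost in 10 of 21 alternatives. SHMT2, the mitochondrial serine hydroxymethyltransferase, had a log2 fold change of -0.41 ± 0.39 and did not pass.

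The count of decreases varied with the libraries in the fit. The count of members that fell was 10 with all libraries, 4 without resistant library 1, 3 without resistant library 2, 5 without resistant library 3 and 4 without parental library 2. The count that rose was 6 without resistant library 1 and 7 to 11 without any other single library. Each such fit holds fewer libraries, and its share of all genes called is not given here. A loss of calls in these genes thus cannot be told from a loss over all genes. Without library 3 of both parental groups, 8 rose and 10 fell: HYOU1 and PHGDH no longer passed and ATF4 did. DDIT3 and TRIB3 passed under all 21 alternatives, with log2 fold changes of -3.54 to -2.65 and of -4.49 to -3.37.

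**Figure D3:**
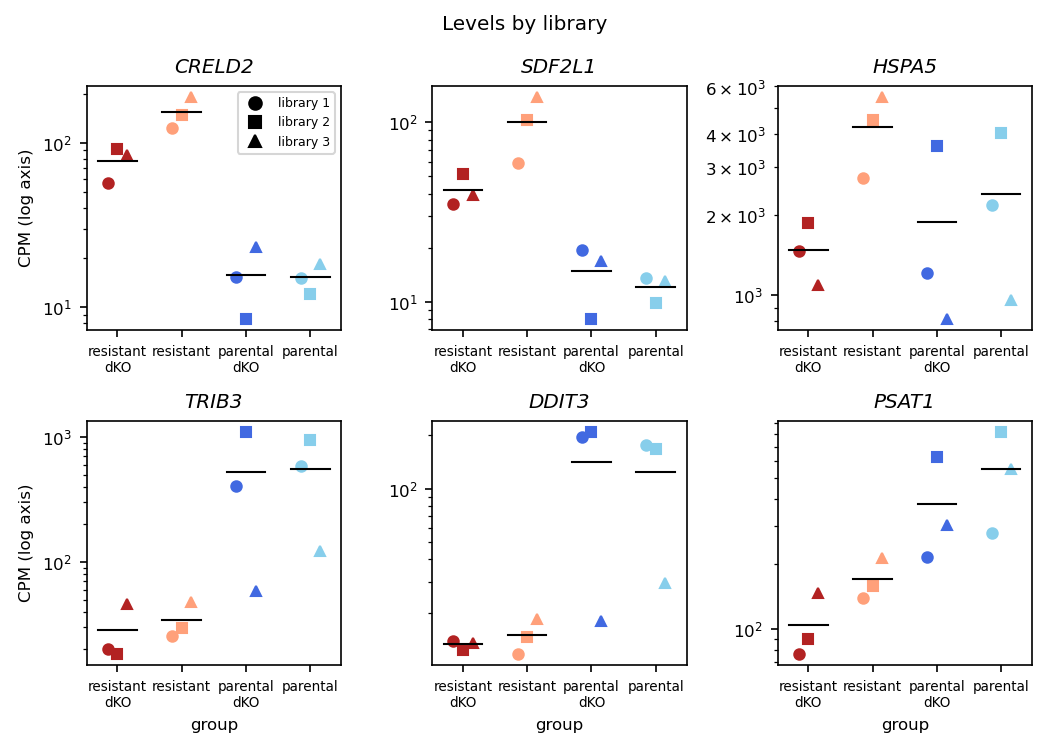
CPM per library on a log axis for 3 ER-arm genes (top) and 3 ATF4-arm genes (bottom); bars are group means. CRELD2 and SDF2L1 separate both resistant groups from both parental groups, HSPA5 overlaps between resistant and parental libraries, and library 3 of each parental group lies below libraries 1 and 2 in TRIB3 and DDIT3.

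Other genes of the same pathways were counted in the same way. Their lists were chosen by function but with earlier results of these data known, so they are not an independent check of the split by arm. Of 50 further ER folding and quality control genes, 20 rose (40%) and 1 fell (2%) in resistant cells, with a median log2 fold change of 0.63. Over all genes tested, 15.2% were higher and 12.8% lower. The largest increases were in DERL3 (2.00 CPM in resistant and 0.302 CPM in parental cells; log2 fold change 2.69 ± 0.78), PDIA5 (106 and 18.0 CPM; 2.56 ± 0.41) and EDEM2 (84.7 and 16.4 CPM; 2.37 ± 0.33), and GFPT1, of the hexosamine pathway, fell (-1.45 ± 0.38). Of 52 further stress and amino acid genes 50 could be tested, and 2 rose (4%) and 21 fell (42%), with a median of -0.98. The transsulfuration gene CTH fell to 1.66 CPM in resistant cells, against 117 CPM in parental cells (-6.14 ± 0.74), with STC2 (-4.06 ± 0.91) and the glycine transporter gene SLC6A9 (-4.00 ± 0.67) next. CBS, which precedes CTH in the same pathway, went the other way: 594 reads in the 3 resistant libraries and 1 read in the 3 parental libraries, which is a ratio of 584 (95% counting interval 104 to 2.31e+04). ALDH1L2 rose as well (2.82 ± 0.63). ATF3 and SESN2, stress genes induced by ATF4, fell by 3.53 ± 1.07 and by 2.98 ± 0.55 on the log2 scale. ATF3 overlapped between groups, at 7.41, 8.22 and 10.2 CPM in resistant cells and 115, 176 and 7.97 CPM in parental cells, so that its decrease lay in parental libraries 1 and 2.

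The second comparison asked what the double knockout changed in resistant cells. All 15 ER-arm genes had a negative log2 fold change with the knockout, though 0 of 32 members passed adjustment in either direction. Of all genes tested, 0.212% were called higher and 0% lower. The 15 genes were measured in the same libraries, so their values are not independent of each other. Each of the 15 ER-arm genes had every resistant dKO library below every resistant library, where 7.17% of all genes did so. The median log2 fold change of the ER arm was -1.19, with a range of -1.52 to -0.67, against 0.04 over all genes. At an unadjusted p under 0.05 there were 14 ER-arm genes and 16 members in all, against 1426 of all 17947 genes. DESeq2 called 3 members lower (DNAJB11, DNAJC3 and HYOU1), limma-voom called 0, and edgeR called 10 lower when genes were filtered on 1 count only. The share of all genes called under these settings is not given here, so these counts cannot be set against a background. The ER arm took 0.345% to 0.593% of counts in resistant dKO libraries, against 0.811% to 1.24% in resistant libraries; without HSPA5 and HSP90B1 it took 0.145% to 0.216% in resistant dKO libraries, against 0.312% to 0.381% in resistant libraries.

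HSPA5 was at 1459, 1867 and 1094 CPM in resistant dKO cells and 2748, 4488 and 5479 CPM in resistant cells, a log2 fold change of -1.52 ± 0.59 (adjusted p = 0.518). The ERAD adaptor gene SEL1L was at 64.5, 61.8 and 29.2 CPM in resistant dKO cells, against 207, 94.4 and 105 CPM in resistant cells (-1.38 ± 0.38; adjusted p = 0.255). HYOU1 was at 199.98, 208 and 251 CPM in resistant dKO cells and 688, 374 and 597 CPM in resistant cells (-1.33 ± 0.36; adjusted p = 0.235). The knockout libraries were close together in HYOU1, and the wide spread lay in the resistant libraries. HERPUD1 was at 93.6, 107 and 80.5 CPM in resistant dKO cells and at 231, 235 and 228 CPM in resistant cells, with the resistant libraries nearly level (-1.31 ± 0.39; adjusted p = 0.323). DNAJC3 had the lowest adjusted p of the module here, with 35.6, 40.2 and 27.8 CPM in resistant dKO cells and 96.4, 59.3 and 97.8 CPM in resistant cells (-1.29 ± 0.28; adjusted p = 0.110). DNAJB9 (-1.28 ± 0.51), SDF2L1 (-1.26 ± 0.36), DNAJB11 (-1.19 ± 0.29), EDEM1 (-1.16 ± 0.32) and MANF (-1.11 ± 0.33) had values of more than 1 in size, and CRELD2, HSP90B1, PDIA4, PDIA6 and SYVN1 lay between -0.99 and -0.67.

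Set beside parental cells, the mean of resistant dKO cells fell between the resistant and parental means for 7 ER-arm genes and below both for 8; the same resistant libraries enter this and the comparison with parental cells. The 8 were all 4 ERAD genes with HSPA5, DNAJB9, DNAJC3 and HYOU1. This position was not particular to the ER arm. In the ATF4 arm 8 of 13 means also lay below both, and among the sensors and XBP1 3 of 4 did. The share over all genes is not given here. CRELD2 kept a mean of 77.6 ± 18.2 CPM in resistant dKO cells, against 154 ± 33.7 CPM in resistant and 15.2 ± 3.17 CPM in parental cells (SD, n = 3 each). HERPUD1 averaged 93.6 ± 13.01 CPM in resistant dKO cells, 231 ± 3.32 CPM in resistant cells and 127 ± 55.3 CPM in parental cells.

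The ATF4 arm showed no such common direction with the knockout in resistant cells, with a median of -0.17, 5 positive and 8 negative values. PHGDH and CEBPB had every resistant dKO library above every resistant library, where 8.02% of all genes did so. PHGDH was at 83.6, 83.8 and 74.5 CPM in resistant dKO cells and 32.6, 42.0 and 43.0 CPM in resistant cells (1.04 ± 0.44; adjusted p = 0.568). VLDLR was the 1 gene of 13 in the arm with every dKO library below, where 7.17% of all genes did so, so this count was near the background. Its levels were 20.5, 20.9 and 7.97 CPM in resistant dKO cells, against 101, 38.9 and 23.8 CPM in resistant cells (-1.73 ± 0.52; adjusted p = 0.324). TRIB3 (-0.27 ± 0.83), DDIT3 (-0.17 ± 0.72) and PPP1R15A (-0.05 ± 0.88) were already low in resistant cells and overlapped between the groups. The 3 sensors had values of -0.72 ± 0.34 (EIF2AK3), -0.61 ± 0.36 (ATF6) and -0.40 ± 0.58 (ERN1), with overlap, and XBP1 was at 53.4, 66.95 and 75.7 CPM in resistant dKO cells, below 161, 79.3 and 102 CPM in resistant cells (-0.80 ± 0.59; adjusted p = 0.811).

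Of the 50 further ER genes 45 had a negative value in this comparison, with a median of -0.58. In 20 of them every dKO library lay below, where 7.17% of all genes did so. None passed, and 17 (34%) had an unadjusted p under 0.05, against 7.95% of all genes. Of the 50 further stress and amino acid genes tested, 29 were negative, with a median of -0.05, and 0 passed. An unadjusted p under 0.05 was found in 2 of them (4%), below the share of all genes. DESeq2 called 1 of the further ER genes higher and 1 lower and none of the stress and amino acid genes, and limma-voom called none of either list. The fibroblast-type marker sum was higher in resistant dKO than in resistant libraries (2525 to 4467 against 347 to 953 CPM), and its part in the ER-arm values was not tested.

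**Figure D4:**
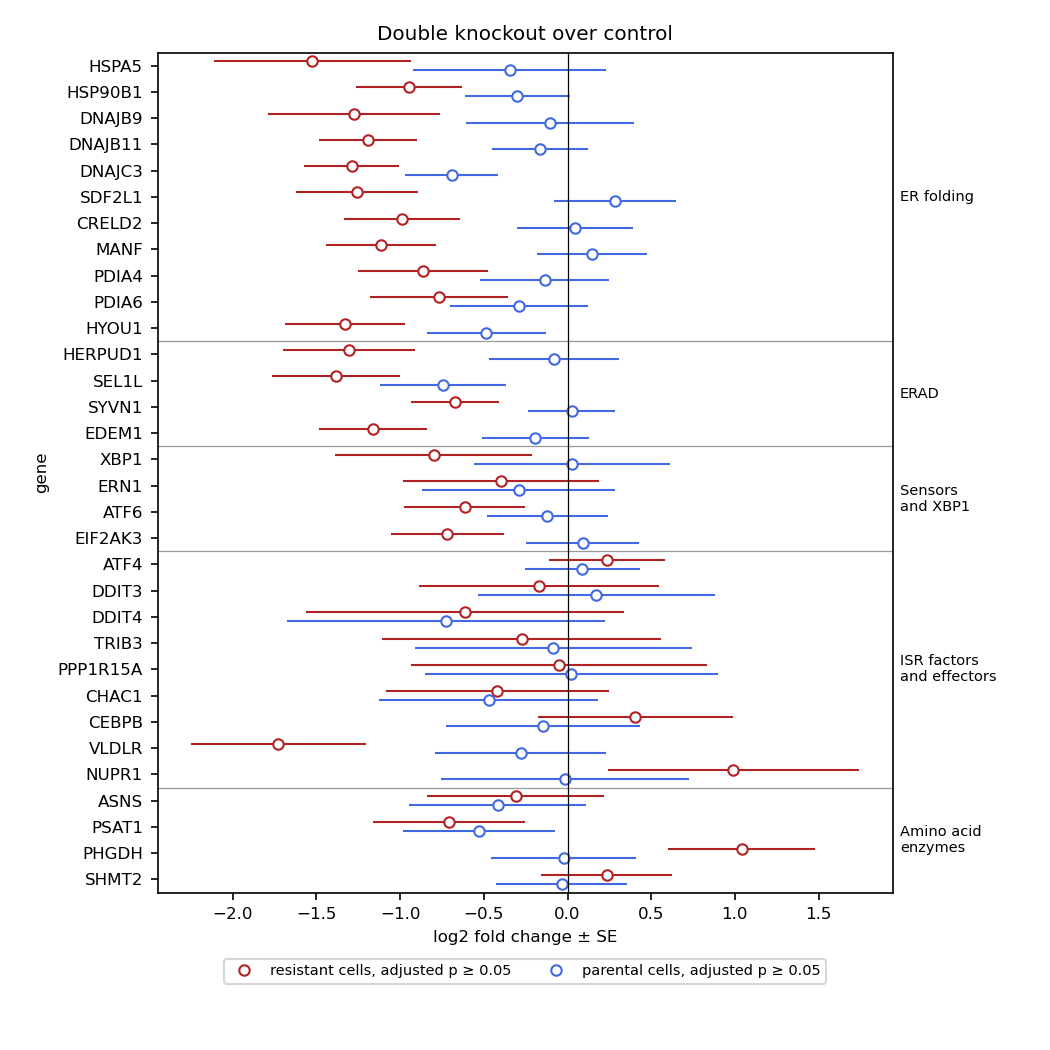
Log2 fold change of the double knockout over its control for each member, with its SE, in resistant cells (red) and parental cells (blue); open symbols did not pass adjustment. All 15 ER-arm values in resistant cells lie between -1.52 and -0.67, and those in parental cells between -0.74 and 0.28.

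In parental cells the double knockout left the module without a called change: 0 of 32 members passed, and 0% of all genes did. DNAJC3 was the 1 member of 32 with an unadjusted p under 0.05 (3.12%), where 3.00% of all genes had one, so this count was at the background. It was at 34.6, 60.5 and 45.9 CPM in parental dKO cells and 65.1, 76.9 and 85.9 CPM in parental cells (-0.69 ± 0.28; unadjusted p = 0.0277 and adjusted p = 1 by edgeR's quasi-likelihood test). DNAJC3 was also the 1 member with every dKO library below every control library, where 3.38% of all genes did so. DESeq2 and limma-voom called 0 members. SEL1L had the lowest value of the ER arm, -0.74 ± 0.38, and SDF2L1 the highest, 0.28 ± 0.36. Medians were -0.16 in the ER arm and -0.08 in the ATF4 arm, against 0.02 over all genes. The ATF4-arm values carried SEs of up to 0.95, and library 3 stood apart in both groups; without library 3 of both groups 0 passed as well, with medians of -0.18 and 0.01. Replicate numbers paired these 6 libraries, and the fit with the number as a block called 0 members too.

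Whether the knockout acted differently in the resistant and parental lines was tested as a difference of the 2 effects. All 15 ER-arm genes had a more negative value in resistant cells, with a median difference of -0.97 on the log2 scale, and the ATF4 arm had a median of 0.11. None of the 32 members passed, where 0.0279% of all genes did. At an unadjusted p under 0.05 there were 4 of 32 members (12.5%), where 3.78% of all genes had one: SDF2L1 (-1.54 ± 0.51), MANF (-1.26 ± 0.46), HERPUD1 (-1.22 ± 0.55) and DNAJB11 (-1.03 ± 0.41), with adjusted p-values of 0.921 for SDF2L1 and 1.00 for the others. DESeq2 and limma-voom called 0. The median difference of the ATF4 arm ran from -0.49 to 0.99 when single libraries were left out, the highest value without parental dKO library 2, and that of the ER arm from -1.18 to -0.62.

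The last comparison set resistant dKO against parental dKO cells. No library of it enters the comparison of resistant with parental cells, but same-numbered parental dKO and parental libraries deviated together (correlations of 0.66 to 0.78 over genes) and library 3 was low in the ATF4 arm of both, so the comparisons are not independent. Of the 32 members 4 rose (12.5%) and 9 fell (28.1%), where 13.6% of all genes tested were higher and 10.2% lower. In the ER arm 4 of 15 rose and 1 fell, with 9 positive and 6 negative values; without the knockout 8 rose and 0 fell, with 14 positive and 1 negative. In the ATF4 arm 0 of 13 rose and 7 fell, and all 13 values were negative. The median log2 fold change was 0.35 in the ER arm and -1.87 in the ATF4 arm, against -0.00 over all genes. Those that rose were CRELD2, MANF, PDIA4 and SDF2L1, all of which had risen without the knockout. Of the 9 that fell, 8 had also fallen without it (ERN1, DDIT3, TRIB3, PPP1R15A, CHAC1, ASNS, PSAT1 and CEBPB), and DNAJB9 had not.

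CRELD2 was at 57.0, 91.8 and 83.9 CPM in resistant dKO cells and 15.2, 8.45 and 23.3 CPM in parental dKO cells (2.31 ± 0.36; adjusted p = 0.000795). SDF2L1 was at 35.0, 51.5 and 39.1 CPM in resistant dKO cells, against 19.3, 8.00 and 16.9 CPM in parental dKO cells (1.50 ± 0.37; adjusted p = 0.0111). PDIA4 (1.45 ± 0.39; adjusted p = 0.0180) and MANF (1.21 ± 0.33; adjusted p = 0.0192) rose by less. DNAJB9 was at 10.2, 13.1 and 5.93 CPM in resistant dKO cells, below 24.6, 47.0 and 13.7 CPM in parental dKO cells (-1.54 ± 0.51; adjusted p = 0.0455), and lost its call in 10 of 21 alternatives; it shares exon bases with PNPLA8 and THAP5 on the opposite strand. HSPA5 averaged 1474 ± 387 CPM in resistant dKO cells and 1877 ± 1504 CPM in parental dKO cells (SD, n = 3 each), with overlap (-0.35 ± 0.58). HSP90B1, DNAJB11 and PDIA6 had values of 0.68 ± 0.31, 0.82 ± 0.29 and 1.12 ± 0.42 that did not pass, and the 4 ERAD genes lay between -0.36 and 0.13.

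TRIB3 was at 20.2, 18.4 and 46.4 CPM in resistant dKO cells and 405, 1096 and 58.2 CPM in parental dKO cells (-4.20 ± 0.94; adjusted p = 0.00699). DDIT3, at the levels given above, fell by 3.39 ± 0.78 on the log2 scale (adjusted p = 0.00778). PPP1R15A (-3.46 ± 0.97), CEBPB (-2.25 ± 0.61), CHAC1 (-2.21 ± 0.69), PSAT1 (-1.87 ± 0.47) and ASNS (-1.68 ± 0.54) fell as well, with adjusted p-values from 0.0122 to 0.0391. PPP1R15A and CHAC1 overlapped between groups through parental dKO library 3, at 29.6 CPM in PPP1R15A and 13.4 CPM in CHAC1, and their calls were lost in 5 and 7 of 21 alternatives; the call of ASNS was lost in 7. PHGDH, which fell without the knockout, had a value of -0.22 ± 0.43 here, and NUPR1 one of -2.11 ± 0.77 (adjusted p = 0.0638). ERN1 fell by 1.83 ± 0.60 (adjusted p = 0.0411), also with overlap through parental dKO library 3 at 12.2 CPM, and lost its call in 8 of 21 alternatives. EIF2AK3 had a value of 0.56 ± 0.34 and ATF6 one of -0.31 ± 0.36, and neither passed.

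These counts moved with single libraries too, and the shares of all genes called in the smaller fits are not given here either. The count that fell was 9 with all libraries, 2 without resistant dKO library 1, 2 without resistant dKO library 2, 5 without resistant dKO library 3 and 2 without parental dKO library 2; the median of the ATF4 arm was -0.75 without parental dKO library 2. The count that rose was 1 without resistant dKO library 2 and 2 without parental dKO library 1. Without library 3 of both parental groups 5 rose and 11 fell. By limma-voom 3 members fell, and DNAJB11 and PDIA6 were called higher in addition to those above. The share of all genes called by limma-voom is not given here. Among the further ER genes (median 0.20), 6 of 50 rose (12.0%) and 3 fell (6.00%), both below the shares of all genes given above. The highest values were in PDIA5 (2.06 ± 0.40), EDEM2 (1.90 ± 0.32) and KDELR3 (1.65 ± 0.53), and those that fell were TMED2 (-1.38 ± 0.29), FKBP2 (-1.37 ± 0.47) and MBTPS2 (-1.18 ± 0.36). Among the further stress and amino acid genes (median -0.85) 2 of 50 rose (4%) and 18 fell (36%). CTH (-5.17 ± 0.70), SLC6A9 (-4.31 ± 0.69) and ATF3 (-3.36 ± 1.06) had the largest decreases, and SESN2 was at -2.54 ± 0.54. ATF3 in parental dKO library 3, at 4.25 CPM, was below every resistant dKO library (8.65 to 9.90 CPM). CBS had 314 reads in resistant dKO libraries and 1 in parental dKO libraries, a ratio of 305 (95% counting interval 54.3 to 1.21e+04), and ALDH1L2 rose (2.63 ± 0.62).

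**Figure D5:**
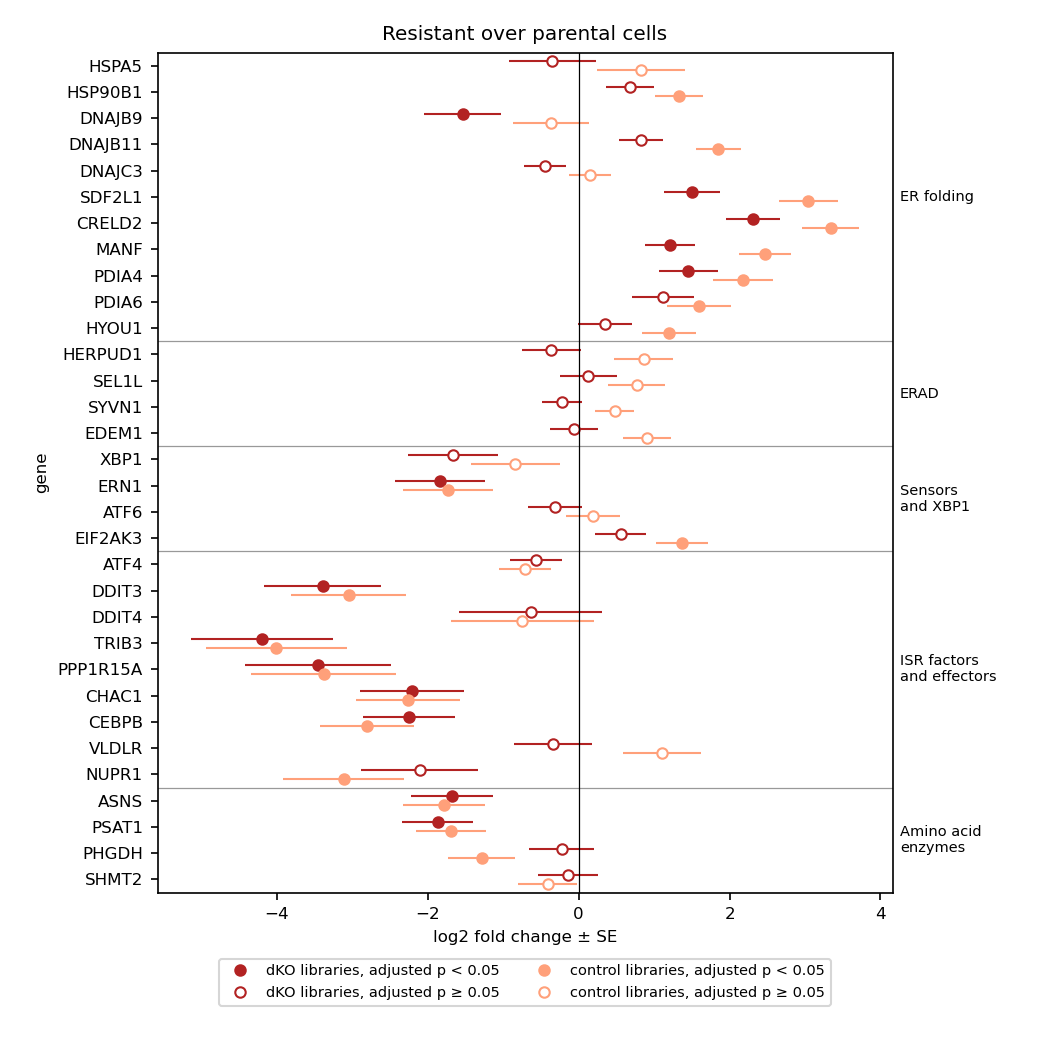
Log2 fold change of resistant over parental cells for each member, with its SE, among dKO libraries (dark red) and among control libraries (orange); filled symbols passed adjustment at 0.05. CRELD2, SDF2L1, MANF and PDIA4 are filled to the right of 0 in both, and TRIB3, DDIT3, PPP1R15A, CEBPB, CHAC1, ASNS and PSAT1 to the left of 0 in both.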

How the data were processed

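The values are raw counts of reads per gene, as the authors deposited them. The labels' protocols name poly(A) selection and a strand-preserving library kit. Read handling involved Trim Galore (0.6.10), STAR (2.7.10a), featureCounts (2.0.1) and the build GRCh38, per the submitters' processing notes; which annotation and strand setting were used is not given in the sources used here. Sample titles gave the groups. The resistant line's name is misspelled in 2 column names, which were matched by their remaining letters. A second copy of the table was not used. There were 44 identifiers on 2 rows, with 0 reads. Coordinates and exon lengths are from GENCODE release 29, promoters from RefSeq.

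Low-count genes were removed with filterByExpr (edgeR 4.0.16 in R 4.3.3), which left 17947 genes, and TMM factors set the library sizes used for CPM. A single fit with 4 group means held all 12 libraries. For each of 5 contrasts, edgeR's robust quasi-likelihood test was adjusted by Benjamini-Hochberg over all genes tested, and "rose", "fell" and "called" mean an adjusted p under 0.05. Each SE is the size of the log2 fold change over the square root of F. With 3 libraries against 3 an exact permutation test cannot go below p = 0.1, so none was used. Counts of libraries within a group differed too much for repeat deposits (chi-square over its degrees of freedom 24.1 to 195), and none was treated as a duplicate. Intervals on ratios of few reads cover counting error only.

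Members and further lists were chosen with earlier results of these data known. Given in full are members that pass in any contrast, with the sensors; of the further lists, up to 3 genes per direction with the largest change that pass with at least 1 CPM, plus ATF3 and SESN2. Members described without passing, such as HSPA5 and SEL1L, were named after their values were seen. Alternatives were size factors by median of ratios, unscaled library sizes, filtering on 1 count only or on 1 CPM in 3 libraries, DESeq2 (1.42.0), limma-voom (limma 3.58.1), a fit of the compared groups alone, replicate number as a block, leaving each library out, and a log2 fold change of at least 1 in size.

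To see whether replicate numbers pair libraries, deviations from group means were correlated over genes. Same-numbered parental dKO and parental libraries correlated at 0.66, 0.77 and 0.78, so these numbers pair them; the pairing comes from the data, not from the labels.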

Additional observations from a re-analysis of the deposited data

How the results depend on the processing

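No called member changed direction under any alternative run. For the double knockout in resistant cells the count of members lower, 0 in the reported fit, was 10 with a filter of 1 count only, 3 with DESeq2, and 14 with a replicate block fitted separately for each line, which also called 2 higher (PHGDH and NUPR1). That block called 1 member, SDF2L1, lower in the difference of the knockout effects. Same-numbered resistant dKO and resistant libraries correlated at 0.57, -0.19 and 0.64, so their numbers were not taken as pairing; 4 of these 6 libraries correlated best with their own number. A replicate block over all libraries gave 10 higher and 9 lower for resistant against parental cells and 5 higher and 8 lower among dKO libraries, and changed no other call count; for parental cells, where numbers pair, the block changed no call. The block within lines cannot compare the lines and was not run for them. Limma-voom gave 3 lower for resistant dKO against parental dKO cells and newly called DNAJB11 and PDIA6 higher there. For resistant against parental cells it no longer called ERN1, PPP1R15A and PHGDH. No share of all genes called is given here for any of these alternatives, so the counts have no background beside them. The cause of these differences was not tested.

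Leaving out each library in turn, the counts of members higher and lower ran from 6 to 11 and 3 to 10 for resistant against parental cells and from 1 to 5 and 2 to 11 among dKO libraries. These smaller fits have no share of all genes beside them here. ER-arm medians ran from 1.02 to 1.43 for resistant against parental cells, from -0.43 to -0.019 for the knockout in parental cells, from -1.37 to -1.05 for the knockout in resistant cells, from 0.15 to 0.71 among dKO libraries and from -1.18 to -0.62 for the difference of the knockout effects. ATF4-arm medians ran from -2.03 to -1.29, from -0.57 to 0.22, from -0.19 to 0.02, from -2.07 to -0.75 and from -0.49 to 0.99 in the same order. Over all 21 alternatives, not only these omissions, 47 single-member values became uncalled and 12 became called for resistant against parental cells. There 611 were counted as unchanged. Among dKO libraries 51 became uncalled and 27 became called, and 588 were counted as unchanged. All 32 members passed the filter on low counts, so depth kept none from being tested; the within-group SD of the mean log2 level of an arm was 0.22 in the ER arm and 0.67 in the ATF4 arm.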
